A study of Mus musculus with 6 samples.

Results

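Costimulatory receptors and members of the tumor necrosis factor (TNF) family were followed in T cell progenitors with normal or delayed activation of *Bcl11b*. The genes were *Icos*, *Ctla4*, *Pdcd1*, *Tnfrsf4*, *Tnfrsf9*, *Tnfrsf18* and *Tnfsf11*, taken by symbol, which made 7 of the 28048 genes in the matrices. Bone marrow progenitors came from Bcl11b-YFP mice on the C57BL/6 background, whose *Bcl11b* alleles both carry a yellow fluorescent reporter, in wild-type (WT) mice and in mice lacking the *Bcl11b* timing enhancer (ΔTE) on both alleles. DN1 (CD44+ CD25-), DN2a (CD44+ CD25+ without the reporter) and DN2b (CD44+ CD25+ with the reporter) cells, successive stages of early T cell development, were sorted and cultured again for 4 days on OP9-DL1 cells, a mouse stromal line that presents a Notch ligand. By the study's methods the cytokines IL-2, IL-7, IL-15 and stem cell factor were added to these cultures. Each of the 6 conditions was 1 library of pooled cells, profiled by sci-RNA-seq3, which counts RNA molecules by unique molecular identifiers (UMIs). The cells were pooled from 6 to 8 mice per genotype, aged 2 to 4 months, males and females combined.

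*Icos*, *Ctla4* and *Pdcd1* encode receptors of the CD28 family, which adjust the signal that a lymphocyte receives through its antigen receptor. ICOS costimulates, whereas CTLA-4 and PD-1 restrain. *Tnfrsf4* (OX40), *Tnfrsf9* (4-1BB) and *Tnfrsf18* (GITR) encode TNF receptors that cells display after activation and that signal through TRAF adaptors to NF-κB. *Tnfsf11* encodes RANKL, a TNF ligand that acts on RANK. Innate lymphoid cells (ILCs) and their precursors also use several of these molecules: ICOS is found on ILC2s and their precursors, PD-1 marks ILC precursors, and RANKL is made by some ILC3s.

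In the RefSeq gene order of GRCm38.p6, *Cd28*, *Ctla4* and *Icos* lie next to each other on chromosome 1 and *Tnfrsf4* and *Tnfrsf18* next to each other on chromosome 4. *Pdcd1* is also on chromosome 1, *Tnfrsf9* is on chromosome 4 and *Tnfsf11* is on chromosome 14. Promoter windows from RefSeq were matched for 6 of the 7 genes, with 7 windows in all, and *Icos* had none in the table. The 250 bases before the start site are shown for *Tnfrsf9*, which has 2 start sites, and *Pdcd1*, because both genes were called higher in ΔTE cells of the DN2b start. They lie at chr4:150919905-150920154 on the plus strand, at chr4:150927749-150927998 on the plus strand and at chr1:94052554-94052803 on the minus strand. Capitals mark a motif match.

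Tnfrsf9, first start: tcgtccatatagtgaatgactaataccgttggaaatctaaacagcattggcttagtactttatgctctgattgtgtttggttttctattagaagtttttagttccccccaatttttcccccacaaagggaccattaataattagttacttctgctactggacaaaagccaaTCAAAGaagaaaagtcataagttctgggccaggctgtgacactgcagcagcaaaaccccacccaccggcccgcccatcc
Tnfrsf9, second start: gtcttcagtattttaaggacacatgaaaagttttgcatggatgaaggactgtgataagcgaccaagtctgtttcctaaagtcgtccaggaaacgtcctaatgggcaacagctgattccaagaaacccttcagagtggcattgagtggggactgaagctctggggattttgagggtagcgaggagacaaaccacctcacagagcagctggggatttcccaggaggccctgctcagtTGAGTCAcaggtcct
Pdcd1: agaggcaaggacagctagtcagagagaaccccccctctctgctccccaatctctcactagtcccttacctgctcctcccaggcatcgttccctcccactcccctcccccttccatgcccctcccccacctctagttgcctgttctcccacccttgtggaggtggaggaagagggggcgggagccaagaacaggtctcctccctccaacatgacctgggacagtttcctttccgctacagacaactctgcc

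The windows were searched on both strands for a GATA motif (AGATAA), a RUNX motif (TGTGGT), an AP-1 motif (TGANTCA) and a TCF/LEF motif (CTTTGA). Among the 7 windows, the first *Tnfrsf9* window held 1 TCF/LEF match and the second held 1 AP-1 match, and the other 5 windows held none of these letters. Of all 32851 windows of this length, 9.99% held the GATA motif, 14.0% the RUNX motif, 6.75% the AP-1 motif and 13.8% the TCF/LEF motif. These matches describe letters and not bound sites.

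Between 3401 and 19489 cells per library passed the filters, 60671 in all, with 1717136 to 9048728 UMIs per library and a median of 386 to 485 UMIs per cell. No barcode was shared between libraries (0 of all barcodes). The WT library of the DN2a start stood apart, since its median share of mitochondrial UMIs was 13.3% against 20.9% to 23.9% in the other libraries, and the limit of 30% removed 2.59% of its cells against 26.8% to 56.6% elsewhere. *Bcl11b*, whose enhancer was deleted, was at 235, 534 and 856 CPM (UMIs of the gene scaled to 1000000 UMIs) in the WT libraries of the DN1, DN2a and DN2b starts and at 89.3, 256 and 539 CPM in the ΔTE libraries. It was lower in the ΔTE library at each start. With 1 library per condition there was no test between genotypes within a start. Intervals are 95% intervals that cover counting error only, and the 3 reverse-transcription wells of a library are technical parts of 1 culture. The share of all genes whose wells did not overlap between genotypes was not counted. Wells that did not overlap are therefore given as a description and not as support.

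First, the receptors of the CD28 family were compared between genotypes. *Icos* was read by 12, 63 and 116 UMIs in the WT libraries of the DN1, DN2a and DN2b starts and by 17, 96 and 203 UMIs in the ΔTE libraries. As levels these were 2.0, 6.96 and 42.5 CPM in WT and 2.88, 15.2 and 118 CPM in ΔTE libraries. *Icos* was higher in the ΔTE library by 2.18-fold at the DN2a start (log2 ratio 1.13, interval 0.65 to 1.61) and by 2.78-fold at the DN2b start (log2 ratio 1.48, interval 1.14 to 1.82). All wells of ΔTE cells lay above all wells of WT cells at both of these starts, from 11.1 to 23 CPM against 5.33 to 7.89 CPM at the DN2a start and from 99.7 to 134 CPM against 37.0 to 52.2 CPM at the DN2b start. At the DN1 start the interval of the log2 ratio (0.53) ran from -0.63 to 1.72 and the wells overlapped. Without the limit on mitochondrial UMIs the DN2a log2 ratio was 0.80, under 2-fold.

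*Pdcd1* was read by 69, 408 and 138 UMIs in the WT libraries and by 81, 428 and 240 UMIs in the ΔTE libraries, in the same order of starts. Its levels were 11.5, 45.1 and 50.5 CPM in WT and 13.7, 67.7 and 139.8 CPM in ΔTE libraries. The difference was largest among the 3 starts for DN2b, where the ΔTE library was 2.77-fold higher (log2 ratio 1.47, interval 1.16 to 1.78), and its wells, at 106 to 160.4 CPM, lay above the WT wells at 39.5 to 61.7 CPM. At the DN2a start the log2 ratio was 0.59 (interval 0.39 to 0.79), which is under 2-fold, with wells that did not overlap. At the DN1 start the interval ran from -0.23 to 0.74.

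*Ctla4*, the neighbor of *Icos*, gave no call at any start. *Ctla4* was read by 118, 518 and 201 UMIs in the WT libraries (19.7, 57.2 and 73.6 CPM) and by 90, 310 and 133 UMIs in the ΔTE libraries (15.3, 49.0 and 77.5 CPM). Its ΔTE over WT log2 ratio was -0.37 at the DN1 start (interval -0.78 to 0.04), -0.22 at the DN2a start (interval -0.43 to -0.02) and 0.07 at the DN2b start (interval -0.25 to 0.40). The wells of the genotypes overlapped at all 3 starts.

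**Figure D1:**
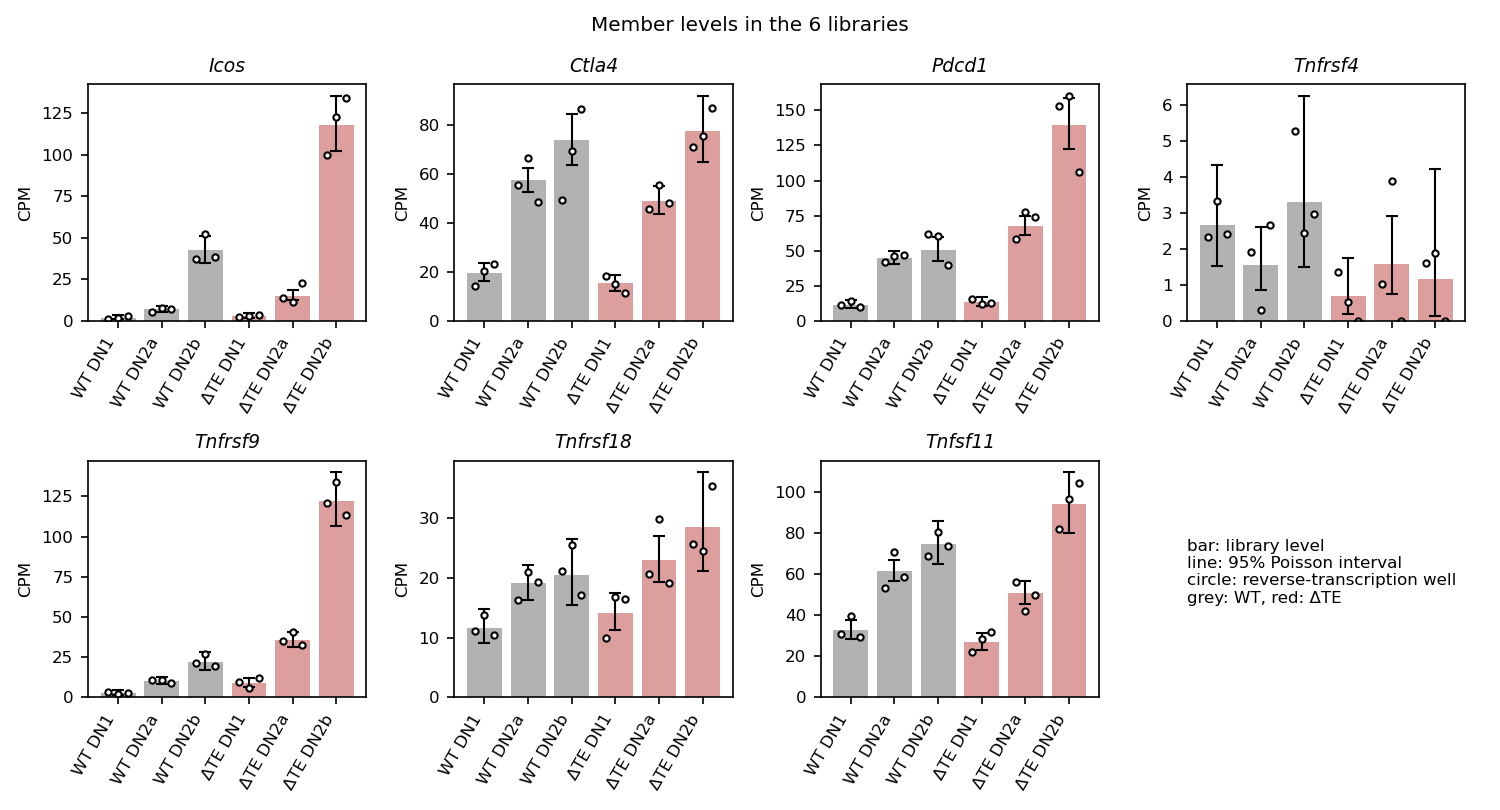
Levels of the 7 genes in the 6 libraries in CPM, with bars for libraries, lines for 95% Poisson intervals and circles for the 3 wells of each library, in grey for WT and red for ΔTE. *Icos*, *Pdcd1* and *Tnfrsf9* stand highest in the ΔTE library of the DN2b start, at 118, 139.8 and 122 CPM, whereas *Ctla4* is at 73.6 and 77.5 CPM in both DN2b libraries.

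Among the TNF receptors, *Tnfrsf9* was higher in the ΔTE library at every start. It was read by 16, 92 and 60 UMIs in the WT libraries (2.67, 10.2 and 22 CPM) and by 53, 227 and 210 UMIs in the ΔTE libraries (8.99, 35.9 and 122 CPM). The ΔTE library was 3.37-fold higher at the DN1 start (log2 ratio 1.75, interval 0.92 to 2.66), 3.53-fold higher at the DN2a start (log2 ratio 1.82, interval 1.47 to 2.19) and 5.57-fold higher at the DN2b start (log2 ratio 2.48, interval 2.06 to 2.92). All ΔTE wells lay above all WT wells at the 3 starts. The closest were the DN1 wells, at 5.76 to 11.9 CPM against 2.22 to 3.51 CPM.

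*Tnfrsf18* was not called either. It was read by 70, 173 and 56 UMIs in the WT libraries (11.7, 19.1 and 20.5 CPM) and by 83, 145 and 49 UMIs in the ΔTE libraries (14.1, 22.9 and 28.5 CPM). The log2 ratios were 0.27, 0.26 and 0.48 at the DN1, DN2a and DN2b starts, with intervals of -0.21 to 0.75, -0.07 to 0.59 and -0.11 to 1.06. The wells overlapped at each start.

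*Tnfrsf4*, next to *Tnfrsf18* on the chromosome, was rarely detected, with 55 UMIs in all libraries. It was read by 16, 14 and 9 UMIs in the WT libraries and by 4, 10 and 2 UMIs in the ΔTE libraries. At the DN1 start the ΔTE library was lower (0.68 against 2.67 CPM, log2 ratio -1.98, interval -4.02 to -0.34), and its wells, at 0 to 1.35 CPM, lay below the WT wells at 2.34 to 3.33 CPM. The intervals at the other starts held 0, from -1.30 to 1.31 at the DN2a start and from -4.75 to 0.77 at the DN2b start, although the ΔTE wells of the DN2b start, at 0 to 1.89 CPM, also lay below the WT wells at 2.43 to 5.29 CPM.

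The ligand *Tnfsf11* moved by less than 2-fold. It was read by 197, 556 and 204 UMIs in the WT libraries (32.9, 61.4 and 74.7 CPM) and by 159, 320 and 161 UMIs in the ΔTE libraries (27.0, 50.6 and 93.8 CPM). The log2 ratio was -0.29 at the DN1 start (interval -0.60 to 0.02), -0.28 at the DN2a start (interval -0.48 to -0.08) and 0.33 at the DN2b start (interval 0.02 to 0.63). The ΔTE wells lay above the WT wells at the DN2b start, at 82.0 to 104 CPM against 68.7 to 80.2 CPM, and overlapped at the others.

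A gene was called when it differed by at least 2-fold between 2 libraries with an interval that did not hold 0, among genes with at least 10 UMIs in the pair. At the DN1 start 1 of the 7 genes was called higher in the ΔTE library (0.734% of all genes) and 1 lower (1.42% of all genes). At the DN2a start 2 were called higher (1.14% of all genes) and 0 lower (3.26% of all genes), and at the DN2b start 3 were called higher (1.79% of all genes) and 0 lower (3.03% of all genes). The median log2 ratio over the same genes was -0.15 at the DN2a start, and it was within 0.1 of 0 at the others. The genotype comparisons share no library, but the study gives its pooled mice per genotype, so the starts of a genotype may share mice. The 6 libraries were also fitted together, with start as a block, so that the spread came from how the genotypes differed from start to start (edgeR quasi-likelihood test, adjusted over 11685 genes). This fit was added after the ratios were seen, and it treats the starts as replicates of the genotypes, which they were not. Its p-values do not cover differences between pools of mice. Of the 7 genes 6 passed the filter on low counts, *Tnfrsf4* being left out, and 3 were higher in ΔTE libraries (2.71% of all genes) and 0 lower (3.73% of all genes). *Tnfrsf9* had a log2 ratio of 2.15 ± 0.15 (SE, adjusted p = 4.09e-10), *Icos* of 1.34 ± 0.16 (adjusted p = 3.16e-06) and *Pdcd1* of 0.89 ± 0.13 (adjusted p = 3.73e-05). The ratio of each was above 0 at 3 of 3 starts, but at the DN1 start the intervals of *Icos* and *Pdcd1* held 0. *Tnfrsf18*, *Ctla4* and *Tnfsf11* did not pass, at 0.38, -0.09 and -0.04 (adjusted p = 0.127, 0.719 and 0.894). Cells with ILC markers, as set out with the classes, made 3.69%, 3.84% and 5.45% of the WT libraries and 4.00%, 6.995% and 12.2% of the ΔTE libraries, in the order of starts, and stroma-marker cells made 9.83% of the WT library and 6.39% of the ΔTE library of the DN2a start. The part of ILC-marker cells in the library levels was not tested. Leaving out stroma-marker cells was among 12 alternative settings for the ratios. Over these the DN2a log2 ratio ran from 0.80 to 1.27 for *Icos*, 0.39 to 0.75 for *Pdcd1* and 1.55 to 1.96 for *Tnfrsf9*. In a library's sum more cells with a gene and more RNA per cell cannot be told apart.

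**Figure D2:**
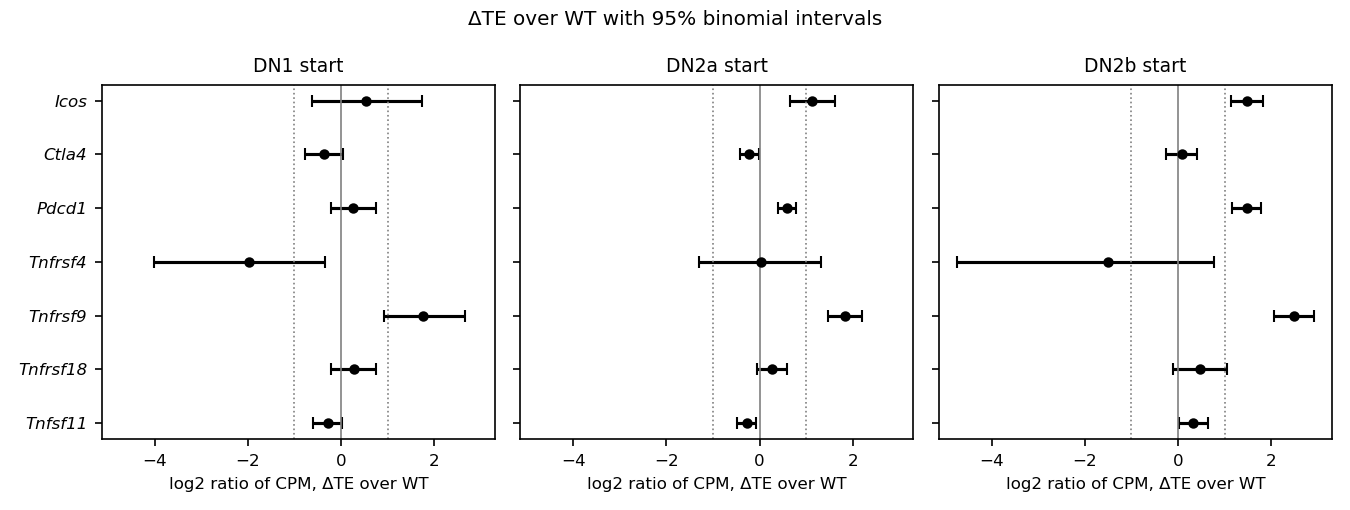
Log2 ratio of CPM, ΔTE over WT, for each gene at the 3 starts, with lines for 95% binomial intervals and dotted lines at 2-fold. *Tnfrsf9* lies above 0 at all starts, at 1.75, 1.82 and 2.48, and *Icos* and *Pdcd1* reach 1.48 and 1.47 at the DN2b start.

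The order of starts was examined next. From the DN1 to the DN2a start 4 of the 7 genes, *Icos*, *Ctla4*, *Pdcd1* and *Tnfrsf9*, were called higher in WT libraries, where 9.9% of all genes were, and the same 4 genes in ΔTE libraries, where 7.05% of all genes were. The folds of these genes lay between 2.91 and 3.92 in WT and between 3.21 and 5.27 in ΔTE libraries. *Tnfrsf18* and *Tnfsf11* were higher by 1.63-fold to 1.88-fold in both genotypes, with intervals above 0. From the DN2a to the DN2b start 2 genes, *Icos* and *Tnfrsf9*, were called higher in WT libraries (0.723% of all genes) and 3 genes, *Icos*, *Pdcd1* and *Tnfrsf9*, in ΔTE libraries (1.41% of all genes). *Icos* had the steepest step of the 7 genes, 6.10-fold in WT (log2 ratio 2.61, interval 2.15 to 3.07) and 7.78-fold in ΔTE libraries (log2 ratio 2.96, interval 2.60 to 3.33). *Pdcd1* was 2.06-fold higher in the ΔTE library of the DN2b start than of the DN2a start (interval of the log2 ratio 0.81 to 1.28), while in WT libraries its log2 ratio was 0.16 (interval -0.13 to 0.45). These comparisons share libraries with each other and with those between genotypes, and in WT libraries the median log2 ratio of all genes was 0.16 for DN2a over DN1 and -0.20 for DN2b over DN2a.

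Cells were then sorted into classes by the markers detected in them. A cell took the class with the most markers detected, at least 2 and more than for any other class, and was otherwise unclassified. The ILC-marker class held 3060 cells, the T-marker class 1413, the progenitor-marker class 4300, the myeloid-marker class 732 and the stroma-marker class 3352, and 47814 cells were unclassified. A class is a range and not a type, as 2378 ILC-marker cells had exactly 2 markers and 15417 cells had 1 such marker. *Nkg7* and *Gzmb*, at 1023 and 1401 CPM in ILC-marker cells, were also read at 300 and 165 CPM in unclassified cells, *Il2rb* and *Ncr1* were at 80.1 and 39.1 CPM against 2.55 and 0.519 CPM, and *Areg* was at 0 in the ILC-marker class. In the T-marker class *Cd3e* was at 283 CPM and *Cd8a* and *Cd8b1* were at 0. Counting markers with at least 20 UMIs in the class, 12 of the 23 ILC markers were at least 2-fold above every other class, as were 9 of the 12 T markers. None of the 7 genes was a marker of any class.

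*Icos*, *Tnfrsf9* and *Pdcd1* stood highest in ILC-marker cells. Over the 6 libraries *Icos* was at 128 CPM in ILC-marker cells (Poisson interval 112 to 144), 7.80 CPM in T-marker cells, 10.00 CPM in unclassified cells and 2.25 to 2.62 CPM in the other classes. The ILC-marker class, 5.04% of cells, held 255 of the 507 *Icos* UMIs, or 50.3%. *Tnfrsf9* was at 111 CPM (interval 97.0 to 127) in ILC-marker cells and at 18.9, 16.5, 9.16, 6.55 and 5.85 CPM in T-marker, unclassified, myeloid-marker, progenitor-marker and stroma-marker cells. *Pdcd1* was at 125 CPM (interval 110 to 141) in ILC-marker cells and at 41.2 and 43.8 CPM in T-marker and unclassified cells.

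The order of classes differed for *Ctla4*. Its level was 105 CPM (interval 84.6 to 128) in T-marker cells, 47.7 CPM in unclassified, 30.8 CPM in progenitor-marker and 23 CPM (interval 16.9 to 30.7) in ILC-marker cells, and myeloid-marker cells had 0 UMIs, which allows up to 6.87 CPM. *Tnfsf11* was at 82.4 CPM in T-marker and 64.1 CPM in ILC-marker cells, whose intervals, 64.7 to 103 CPM and 53.5 to 76.2 CPM, overlapped. *Tnfrsf18* was at 34.0 CPM (interval 26.4 to 43.2) in ILC-marker and 22.3 CPM (interval 13.6 to 34.4) in T-marker cells. *Tnfrsf4* lay between 0.900 and 5.57 CPM in the 6 classes, with 2 to 36 UMIs each. Stroma-marker cells, which are not lymphoid, gave 0.900 to 15.8 CPM over the 7 genes, the highest for *Ctla4*. Their median was 540.5 UMIs per cell against 569 in ILC-marker cells.

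**Figure D3:**
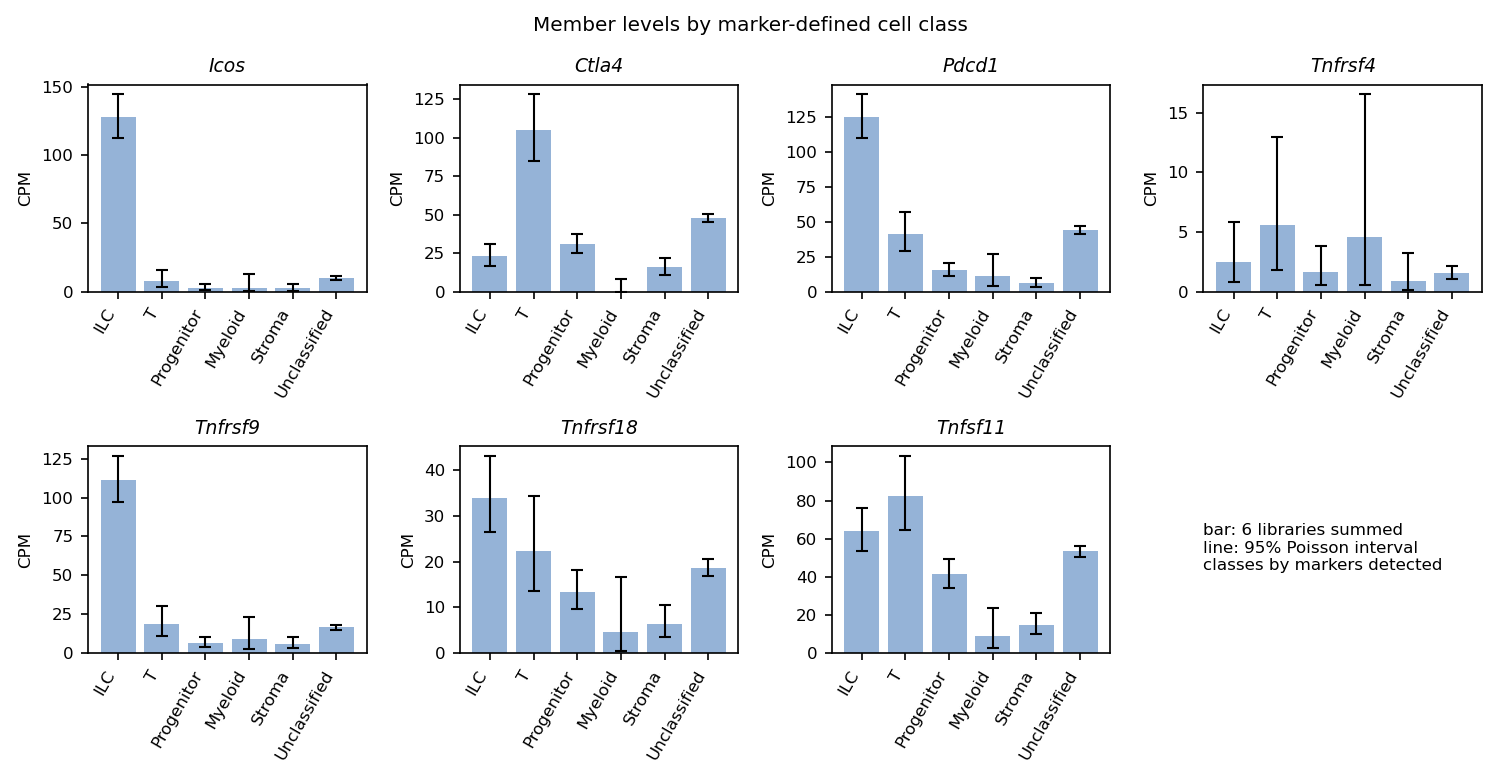
Levels of the 7 genes in CPM in each marker-defined class, with the 6 libraries summed and lines for 95% Poisson intervals. *Icos*, *Tnfrsf9* and *Pdcd1* peak in the ILC-marker class at 128, 111 and 125 CPM, whereas *Ctla4* peaks in the T-marker class at 105 CPM.

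The classes were tested against each other within libraries, on UMIs summed per library and class, with library as a block (edgeR quasi-likelihood test, Benjamini-Hochberg adjustment over all genes tested). Of the 7 genes, 6 passed the filter on low counts and *Tnfrsf4* did not. *Icos* and *Tnfrsf9* were low outside the ILC-marker class. *Icos* no longer passed the filter when the ΔTE library of the DN2b start was left out. How many genes passed or were called higher, here and against T-marker cells, is therefore no support. The p-values of *Icos* and *Tnfrsf9* are given with this limit. Between ILC-marker and unclassified cells 3 of the 6 were higher (2.57% of all genes that were not markers) and 1 was lower (1.16% of these genes). *Icos* was 9.37-fold higher (log2 ratio 3.23 ± 0.22, SE, adjusted p = 4.25e-23), *Tnfrsf9* 4.68-fold higher (log2 ratio 2.23 ± 0.21, adjusted p = 2.92e-15) and *Pdcd1* 2.37-fold higher (log2 ratio 1.24 ± 0.14, adjusted p = 2.45e-11). *Ctla4* was lower, with a log2 ratio of -1.15 ± 0.22 (adjusted p = 9.84e-05). *Icos* and *Tnfrsf9* were higher in ILC-marker cells in 5 of 6 libraries, *Pdcd1* was higher in 6 of 6, and *Ctla4* was lower in 6 of 6. The exception for *Icos* and *Tnfrsf9* was the WT library of the DN1 start, whose ILC-marker cells held 0 UMIs of either gene (of 298014 in all, which allows up to 3 UMIs or 10.1 CPM).

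*Tnfrsf18* was higher in ILC-marker than in unclassified cells in 6 of 6 libraries, at a log2 ratio of 0.80 ± 0.25 that did not pass the test (adjusted p = 0.0539). The value was not called in 6 of 9 alternatives and passed with RLE scaling (adjusted p = 0.0461), with only the 2 classes compared (adjusted p = 0.0437) and without the WT library of the DN1 start (adjusted p = 0.0372), with a highest adjusted p of 0.277. *Tnfsf11* was at a log2 ratio of 0.18 ± 0.16 (adjusted p = 0.712). The median log2 ratio was -0.01 over all genes tested.

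Against T-marker cells 3 of the 6 genes were higher in ILC-marker cells (2.01% of all genes that were not markers) and 1 was lower (2.45% of these genes). *Icos* was 20.6-fold higher (log2 ratio 4.37 ± 0.43, adjusted p = 7.43e-14), *Tnfrsf9* was 5.54-fold higher (log2 ratio 2.47 ± 0.37, adjusted p = 2.51e-07) and *Pdcd1* was 3.21-fold higher (log2 ratio 1.68 ± 0.25, adjusted p = 3.60e-07). *Ctla4* was lower, with a log2 ratio of -1.95 ± 0.28 (adjusted p = 8.80e-08). *Tnfrsf18* (0.67 ± 0.41, adjusted p = 0.486) and *Tnfsf11* (-0.19 ± 0.23, adjusted p = 0.818) did not pass. Both contrasts use the same ILC-marker cells. With a shorter list of 15 ILC markers, *Ctla4* lost its call in both contrasts, at log2 ratios of -0.97 against unclassified cells (adjusted p = 0.427) and -1.73 against T-marker cells (adjusted p = 0.0533). These were its highest adjusted p-values over the alternatives, whereas *Pdcd1* was called in all 16 alternatives of each contrast. *Icos* was called in all 15 alternatives with a value against unclassified and all 14 against T-marker cells. For *Tnfrsf9* these were 16 and 15. Whether *Icos* and *Tnfrsf9* could be tested rests on the class where they are high, so their calls over the alternatives are no support.

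The genotypes were also compared within the ILC-marker class. The marker levels of this class differed between genotypes. For *Il2rb* they were 0, 27.1 and 66.7 CPM by start in WT, against 36.1, 93.6 and 315 CPM in ΔTE libraries. At the DN2b start *Xcl1*, *Ncr1* and *Klrk1* were higher in ΔTE cells (172, 130 and 168 against 38.9, 22.2 and 44.5 CPM). Others were lower there, such as *Nkg7* (679 against 979 CPM). The part of this make-up in the ratios that follow was not tested. *Icos* was read by 0, 22 and 50 UMIs in ILC-marker cells of the WT libraries (0, 49.8 and 278 CPM) and by 8, 63 and 112 UMIs in those of the ΔTE libraries (26.2, 118 and 469.8 CPM), in the order of starts. Pooled over starts, the level was 2.17-fold higher in ΔTE cells (169.9 against 78.3 CPM, log2 ratio 1.12, interval 0.72 to 1.53). When 3 markers were required the log2 ratio was 0.56 and its interval, -0.03 to 1.17, held 0.

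*Tnfrsf9* was read by 0, 18 and 18 UMIs in WT and by 9, 72 and 105 UMIs in ΔTE ILC-marker cells, or 0, 40.7 and 100.1 CPM against 29.5, 135 and 440.4 CPM. The pooled level was 4.41-fold higher in ΔTE cells (log2 ratio 2.14, interval 1.62 to 2.70). *Pdcd1* was read by 5, 44 and 22 UMIs in WT and by 12, 88 and 78 UMIs in ΔTE ILC-marker cells, with a pooled level 2.14-fold higher in ΔTE cells (log2 ratio 1.10, interval 0.69 to 1.52). By start, *Icos* was 2.37-fold higher at the DN2a and 1.69-fold higher at the DN2b start, and *Pdcd1* was 1.66-fold higher at the DN2a and 2.67-fold higher at the DN2b start, with intervals above 0, so that each was under 2-fold at 1 of these starts. *Tnfrsf9* was 3.31-fold and 4.40-fold higher there. The intervals of the other 4 genes held 0, at pooled log2 ratios of -0.23 for *Ctla4*, -0.81 for *Tnfrsf4*, 0.74 for *Tnfrsf18* and -0.05 for *Tnfsf11*.

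By the 2-fold rule 3 of the 7 genes were called higher in ΔTE ILC-marker cells (1.75% of all genes with at least 10 UMIs there) and 0 lower (1.74% of these genes). With the 15 markers of the shorter list 1 was, *Tnfrsf9*, since the intervals of *Icos* and *Pdcd1*, at log2 ratios of 1.06 and 1.09, then held 0. Without either of 2 WT wells of the DN1 start, or either of 2 ΔTE wells of the DN2b start, *Icos* and *Pdcd1* fell below 2-fold, at log2 ratios of 0.84 to 0.995 and 0.90 to 0.98, and 1 gene was called. ILC-marker cells held 484 CPM of *Bcl11b* in WT libraries against 205 CPM with the enhancer deleted. In unclassified cells, most of each library, *Tnfrsf9* was higher in ΔTE cells at all 3 starts, by 2.74-fold at the DN1 start (log2 interval 0.54 to 2.45), 2.83-fold at the DN2a start (log2 interval 1.06 to 1.96) and 4.83-fold at the DN2b start (log2 interval 1.69 to 2.88). *Icos* was read there at 30.2 CPM (WT) and 68.1 CPM (ΔTE) at the DN2b start. At the DN2a start the unclassified cells read *Icos* at 6.05 CPM (WT) and 5.84 CPM (ΔTE), with a log2 ratio of -0.05 and an interval of -0.82 to 0.69.

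**Figure D4:**
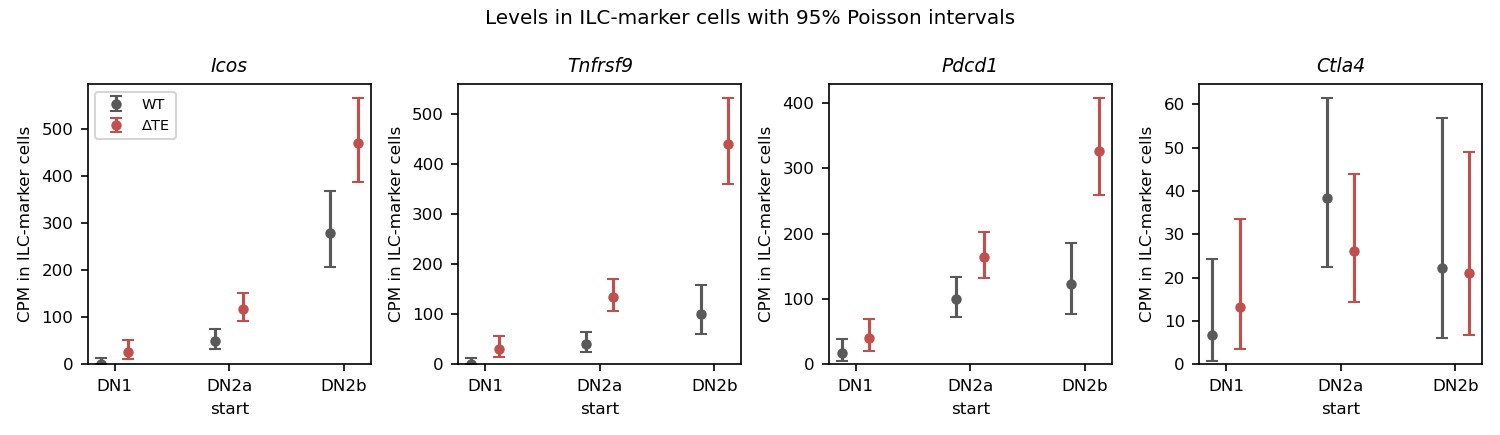
Levels in ILC-marker cells in CPM at the 3 starts for 4 of the genes, in grey for WT and red for ΔTE, with lines for 95% Poisson intervals. *Tnfrsf9* reaches 440.4 CPM in ΔTE against 100.1 CPM in WT cells of the DN2b start, and *Ctla4* lies between 6.71 and 38.5 CPM in the 6 libraries.

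At the depth of these libraries few cells gave UMIs of 2 or more of the genes. The number to be expected from depth alone was not worked out, so these counts do not show that the genes lie in separate cells. No member was read in 55595 cells, 1 in 4647 cells, 2 in 399 cells, 3 in 28 cells and 4 in 2 cells. *Pdcd1* and *Tnfrsf9* were read together in 75 cells, *Icos* and *Pdcd1* in 52, *Icos* and *Tnfrsf9* in 41 and *Icos* and *Ctla4* in 7. The 158 WT and 247 ΔTE cells with an *Icos* UMI had a median of 513 UMIs per cell against 434 in cells without one. In these cells *Pdcd1* reached 268 CPM among WT and 228 CPM among ΔTE cells, against 33.4 and 51.9 CPM in cells without *Icos*. *Tnfrsf9* reached 157 CPM among WT and 228 CPM among ΔTE cells with *Icos*, against 8.71 and 33.1 CPM in those without. *Ctla4* was at 22.4 and 33.6 CPM with *Icos*, from 2 and 5 UMIs, and at 47.2 and 38.3 CPM without. The starts were pooled in these levels. From the DN1, DN2a and DN2b starts came 10, 55 and 93 WT and 15, 81 and 151 ΔTE cells with *Icos*. The DN2b libraries had the fewest cells of each genotype, 4968 and 3401, and the highest levels of *Pdcd1* and *Tnfrsf9*. The part of the start in these levels was not tested.

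Across 34 sums of cells of a class in a library, which share libraries and differ in depth, *Icos* was most like *Il2rb* (Pearson r of log2(CPM + 10) 0.93), the IL-2 receptor β chain and itself an ILC marker, *St3gal6* (0.93) and *Ikzf3* (0.93). *Tnfrsf9* was most like *Itgae* (0.86), the integrin CD103, *Il2rb* (0.81) and *Icos* (0.80). *Pdcd1* was most like *Inpp4b* (0.84), *Il2rg* (0.83), the common γ chain, and *Cd28* (0.82). *Ctla4* was most like *Tmtc2*, *Thy1* and *Lipg* (0.84, 0.84 and 0.83) and *Tnfsf11* most like *Nebl* (0.89), *Tcf12* (0.86) and *Sytl3* (0.86). For *Tnfrsf18* the 3 were *Usp44* (0.85), *Zfp560* (0.82) and *Il17rb* (0.80), and for *Tnfrsf4* *Zfp58* (0.68), *Ankzf1* (0.65) and *Gm25777* (0.62). *Icos* and *Ctla4*, neighbors in the genome, had an r of 0.15.

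The ligands and receptors that pair with these genes were low in the libraries as a whole. *Tnfsf18*, the GITR ligand, had 0 UMIs in all libraries, and *Tnfsf4*, the OX40 ligand, and *Tnfsf9*, the 4-1BB ligand, lay between 0.366 and 2.91 CPM. *Icosl*, the ICOS ligand, lay between 3.29 and 5.42 CPM, *Cd274* (PD-L1) between 9.39 and 18.7 CPM and *Pdcd1lg2* (PD-L2) between 1.74 and 7.57 CPM. The B7 ligands *Cd80* and *Cd86* lay between 1.75 and 9.95 CPM and between 0 and 7.17 CPM. By class, *Cd86*, *Cd274* and *Pdcd1lg2* were highest in myeloid-marker cells, at 77.9, 64.2 and 29.8 CPM, and *Cd80* was at 50.4 CPM in stroma-marker and 41.2 CPM in myeloid-marker cells. The stroma had been reduced with a mesh before fixation. *Tnfrsf11a* (RANK) lay between 2.33 and 7.63 CPM in the libraries and at 22.9 CPM in myeloid-marker cells, and *Tnfrsf11b*, the decoy receptor of RANKL, was at 48.6 CPM in stroma-marker cells and at 0 to 1.11 CPM in the other classes.

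In a list of 62 other genes of the CD28 and B7 family, TNF receptors, TNF ligands, and adaptors and NF-κB, 43, 48 and 38 genes had the 10 UMIs needed for a call at the DN1, DN2a and DN2b starts. At the DN1 start 0 were called higher in the ΔTE library (0.734% of all genes) and 0 lower (1.42% of all genes). At the DN2a start 0 were called higher (1.14% of all genes) and 3 lower, *Tnfrsf11b*, *Fasl* and *Eda* (3.26% of all genes), and at the DN2b start 3 were called higher, *Pdcd1lg2*, *Tnf* and *Traf1* (1.79% of all genes), and 1 lower, *Fas* (3.03% of all genes). *Tnfrsf11b*, *Eda* and *Fas* were read mostly in stroma-marker cells, with 108, 142 and 33 UMIs there against 8, 23 and 17 in unclassified cells, and stroma-marker cells made 9.83% of the WT and 6.39% of the ΔTE library at the DN2a start and 3.62% and 1.62% at the DN2b start. The part of these cells in the calls was not tested. These counts rest on few UMIs, such as 10 against 2 for *Traf1* and 27 against 15 for *Tnf*. Between ILC-marker and unclassified cells 24 of the 62 genes were tested, of which 2 were higher (2.57% of all genes that were not markers), 0 lower (1.16% of these genes) and 22 not called. *Cd28*, the costimulatory receptor next to *Ctla4*, was higher (log2 ratio 1.80 ± 0.23, adjusted p = 4.00e-09), as was *Rela*, a subunit of NF-κB (0.68 ± 0.18, adjusted p = 0.0139), whose call was lost under 7 settings (adjusted p of 0.00938 to 0.235 over the 15 alternatives), among them the leaving out of the WT DN2a, WT DN2b or ΔTE DN2b library. Its log2 ratio lay between 0.51 and 1.09 over the same alternatives. Against T-marker cells *Cd28* was the only one of the 24 genes called (2.44 ± 0.43, adjusted p = 1.30e-05). With 1 library left out at a time, *Cd28* could be tested in 5 of the 6 settings. Its passing the filter may thus rest on the class where it is high, and its p-values are given with this limit. The median log2 ratio of the 24 genes was 0.05 against unclassified and 0.12 against T-marker cells, beside -0.01 and 0.02 over all genes tested. The other genes with the lowest p, *Tnfsf8*, *Relb*, *Traf6*, *Tnfrsf13b*, *Tnfrsf21*, *Traf3*, *Nfkb1* and *Tnfrsf1b*, and the tested ligands *Cd80* and *Cd86* had adjusted p-values of 0.15 to 0.89 between ILC-marker and unclassified cells.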

How the data were processed

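Libraries were made by sci-RNA-seq3 from pooled cultures, 1 per condition, with 3 reverse-transcription wells each. The authors deposited raw UMI counts for every gene and barcode, with no cells removed. The submitters' notes name build mm9, and the aligner, annotation and counting settings, strand included, are not given in the sources used here. RefSeq positions are on GRCm38.p6.

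Barcodes were kept from 200 detected genes up to 2000 UMIs if their mitochondrial share did not pass 30%, after the limits in the study's methods. This left 60671 cells, fewer than the study gives, so the cells are not the study's own set. No doublet caller was run. UMIs were summed per library, well and class and scaled to 1000000 (CPM). Intervals were exact Poisson for levels and exact binomial for ratios. A UMI total of 0 was read as allowing up to 3 UMIs, or 0.332 to 1.75 CPM per library. Class sums of at least 20 cells were tested in edgeR 4.0.16 (R 4.3.3), with DESeq2 1.42.0 as an alternative, and an adjusted p under 0.05 was called. With library as a block over 6 different conditions, the spread includes differences between conditions, and the wells were never used as replicates. In simulated counts for ILC-marker against unclassified cells over 7646 genes, 89% of 2-fold and 99% of 4-fold changes were recovered, and against T-marker cells 61% and 98%. For genotype with start as a block, over 11685 genes, 44% and 99% were recovered. The simulated counts had a fixed dispersion and the same fold in every library or start. These shares are therefore not the recovery in the data themselves. Named genes were the 7 members, their partners, the 10 other list genes with the lowest p, and the 3 genes most like each member with at least 50 UMIs. The members, marker lists, gene lists and tests were chosen with earlier results of these data known. Python 3.11.15, numpy 2.4.6, pandas 2.3.3, scipy 1.17.1 and matplotlib 3.10.9 were used.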

Additional observations from a re-analysis of the deposited data

Results flagged for a closer look

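Cells left out by the filters also held these genes. In the 4441 ΔTE and 3440 WT cells of the DN2b start with over 30% mitochondrial UMIs, *Icos* was at 28.1 CPM in ΔTE against 4.60 CPM in WT cells, *Pdcd1* at 48.7 against 18.0 CPM, *Tnfrsf9* at 35.8 against 10.0 CPM and *Tnfrsf18* at 13.2 against 6.69 CPM. The interval of each of these ratios lay above 0, and those of *Ctla4*, *Tnfrsf4* and *Tnfsf11* held 0. In such cells of the DN1 and DN2a starts the interval of every gene held 0. At the DN2a start *Icos* was at 5.89 CPM in ΔTE against 10.3 CPM in WT cells, from 17 and 3 UMIs. In barcodes with over 2000 UMIs, *Tnfrsf9* was at 29.6 CPM in ΔTE against 5.02 CPM in WT barcodes of the DN2a start, from 8 and 2 UMIs, and at 154.5 against 25.4 CPM at the DN2b start, from 7 and 4 UMIs. There *Icos* had 6 UMIs in ΔTE and 0 in WT barcodes.

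*Tnfsf11* went opposite ways at 2 starts, with a log2 ratio of ΔTE to WT of -0.28 at the DN2a start and 0.33 at the DN2b start. The median log2 ratio over all genes was itself -0.15 at the DN2a start and -0.03 at the DN2b start. Over 12 alternative settings the ratio of *Tnfsf11* ran from -0.43 to -0.14 at the DN2a start and from 0.15 to 0.43 at the DN2b start. The difference between the starts was not tested, since each value rests on 1 library per genotype.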

How the results depend on the processing

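No paired analysis was possible by replicate number because the labels give 1 replicate number in each condition, and the genotypes were paired by start instead. With start as a block 3 genes were higher in ΔTE libraries with RLE scaling, with no filter, with DESeq2 and without each start in turn. Over all settings, 132 values for counts of genes called stayed within 1.5 times the reported count and 14 did not. Without the limit on mitochondrial UMIs 1 gene in place of 2 was called higher in ΔTE cells at the DN2a start, and 1 in place of 2 from the DN2a to the DN2b start in WT. With the 15 ILC markers of the shorter list, chosen after seeing the data, 1 gene in place of 3 was called in ILC-marker cells. Leaving out 1 well at a time gave 1 to 2 genes higher in ΔTE at the DN2a start, 1 to 3 from the DN2a to the DN2b start in WT, and 1 to 4 in ILC-marker cells. The log2 ratio of *Icos* at the DN2a start was 0.99 without 1 WT well and 0.86 without 1 ΔTE well. Leaving out 1 library at a time gave 96 to 228 genes higher in ILC-marker than in unclassified cells, where 195 were reported, and 87 to 181 against T-marker cells, where 153 were reported. The counts were 96 and 87 without the ΔTE library of the DN2b start, 126 against unclassified cells without the ΔTE library of the DN2a start and 99 against T-marker cells without the WT library of the DN2b start. The count of genes lower than in unclassified cells was 386 with no filter on low counts, 31 with DESeq2 and 88 as reported.

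Turns of direction were all in values that had not passed the test or whose interval held 0. Of the ΔTE over WT ratios, *Ctla4* ran from -0.46 to 0.40 and *Tnfsf11* from -0.17 to 0.11 in ILC-marker cells, *Tnfrsf4* from -1.22 to 0.67 at the DN2a start and *Ctla4* from -0.06 to 0.34 at the DN2b start, and with start as a block *Tnfsf11* was at 0.060 without the DN1 and 0.037 without the DN2a start. With the shorter marker list *Tnfsf11* was at -0.16, *Nfkb1* at 0.10 and *Cd80* at 1.51 against unclassified cells, and *Nfkb1* at 0.0021, *Cd80* at 1.83 and *Tnfrsf21* at -3.35 against T-marker cells, the last with adjusted p = 0.0174. With 3 markers *Traf3* was at 0.17 against unclassified cells, and against T-marker cells *Traf3* was at 0.21, *Tnfrsf21* at -0.21, *Nfkb1* at 0.077 and *Tnfrsf1b* at -0.063. Against T-marker cells, *Traf3* and *Tnfrsf1b* were at 0.030 and -0.067 with at least 300 genes per cell and at 0.021 and -0.0026 with at least 400 UMIs per cell, and *Traf3*, *Tnfrsf21* and *Cd80* at 0.018, -0.10 and 0.51 without the mitochondrial limit. Leaving out 1 library at a time, *Tnfrsf21* ran from -0.040 to 0.18 and *Cd80* from -0.92 to 4.10 against T-marker cells. The causes were not tested. At this depth *Tnfrsf4*, with 2 to 16 UMIs per library, left wide intervals of each ratio.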
